A study of Rattus norvegicus with 6 samples.

Results

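Etv1, Etv4 and Etv5 form the PEA3 subfamily of ETS transcription factors and were taken from the deposited table by gene name, which gave 3 of its 32883 genes. The RNA came from cultured oligodendrocyte precursor cells (OPCs), the dividing glial progenitors that mature into myelinating oligodendrocytes. They were grown from the cerebral cortices of newborn Sprague Dawley rats, with a pair of animals per preparation, and were separated from the mixed glial layer by shaking. Per the labels, 3 libraries came from cells given the solvent DMSO and 3 from cells given 5 µM ZJU-37 for 36 h. The methods state a shorter treatment. ZJU-37 is an inhibitor of the kinase RIPK1, made by adding an amide bond to the inhibitor Nec-1s. The cells were treated in culture, at 1 dose and 1 time.

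PEA3 factors bind DNA through the ETS domain, which reads a GGAA core, and mostly activate transcription. In many tissues their own transcription rises when receptor tyrosine kinases signal through RAS and the kinases MEK and ERK. The repressor capicua, encoded by Cic, holds the 3 genes down until ERK signalling relieves it, and the ubiquitin ligase built on COP1, DET1 and cullin 4 degrades the proteins. In OPCs the main mitogen receptor is PDGFRα, a receptor tyrosine kinase. The comparison asked how ZJU-37 altered the abundance of PEA3 transcripts, alone and relative to each other, and of the genes of this pathway.

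All 3 PEA3 transcripts rose with ZJU-37. Etv4 was 2.43-fold higher, Etv5 1.71-fold higher and Etv1 1.53-fold higher than with DMSO, and no DMSO library reached any ZJU-37 library for any member. In these libraries the rise was unequal, so that Etv4 passed Etv1 in level per transcript length. Because these were bulk libraries, a change in the share of a cell type and a change in RNA per cell cannot be told apart.

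Library totals over genes ran from 13935865 to 24097927 counts, and 3 counts corresponded to between 0.124 and 0.215 CPM, the usual counts-per-million scale.

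The marker genes of OPCs changed in opposite directions beside the PEA3 rise. All 7 were detected and tested, and edgeR called 4 higher and 2 lower, where 9.43% of all tested genes were called higher and 5.58% lower. Their summed level, 1268 to 1481 CPM per kilobase of gene length (RPKM) with DMSO and 1161 to 1577 RPKM with ZJU-37, holds both movements. Gpr17, a receptor of precursors committed to differentiation, went from 377, 367 and 329 to 43.5, 29.0 and 27.0 CPM (log2 fold change -3.43, SE 0.20; edgeR adjusted p = 3.20e-04). Cspg4, which encodes the proteoglycan NG2, rose by 1.04 (SE 0.14; edgeR adjusted p = 0.00396). Pdgfra, described with the receptors, was also called higher. Olig1 was called higher by 0.64 (SE 0.12; edgeR adjusted p = 0.0150, and 0.0619 or 0.0614 without DMSO replicate 2 or 3), and Ptprz1 by 0.54 (SE 0.12; edgeR adjusted p = 0.0243, and 0.0897, 0.0829 or 0.0706 without DMSO replicate 2, DMSO replicate 3 or ZJU-37 replicate 3). Sox10 was called lower, with a log2 fold change of -0.61 (SE 0.15; edgeR adjusted p = 0.0430), and leaving out any library but ZJU-37 replicate 1 gave 0.0630 to 0.155. Olig2 stood at -0.07 (edgeR adjusted p = 0.737).

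Markers of other cells were also present. Oligodendrocyte markers summed to 3654 to 7153 RPKM with DMSO and 1538 to 3149 RPKM with ZJU-37. Of 7 tested, edgeR called 2 lower and 0 higher, beside 5.58% and 9.43% of all tested genes. At an unadjusted p-value under 0.05, which 28.7% of all tested genes met in either direction, 5 were lower. DESeq2 called 5 lower, limma-voom 2 and the fit with the replicate block 5. Cnp had a log2 fold change of -1.36 (SE 0.18; edgeR adjusted p = 0.00362) and Myrf, a regulator of myelin genes, one of -1.69 (SE 0.19; edgeR adjusted p = 0.00208). Microglial markers summed to 961 to 1712 against 693 to 1438 RPKM, astrocyte markers to 251 to 411 against 239 to 361 RPKM, and neuronal markers to 165 to 229 against 151 to 214 RPKM. Endothelial and mural markers summed to 4.89 to 10.1 against 3.17 to 6.93 RPKM, with Cldn5 at 0 counts in every library. Among these 4 lists edgeR called 0 genes at an adjusted p-value of 0.05, while 1 neuronal gene had an unadjusted p-value under 0.05 and DESeq2 and limma-voom called 0. With the replicate number as a block, which 16.2% of all tested genes passed as higher and 15.9% as lower, 3 of 7 microglial genes were lower, 1 of 6 astrocyte genes was higher and 2 were lower, 1 of 7 neuronal genes was lower and 1 of 3 endothelial and mural genes was lower. The part of the cell mixture in the PEA3 values was not tested.

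In the coordinates of the deposited table, whose genome build is not given in the sources used here, Etv1 (ENSRNOG00000006867) spans bases 58467254 to 58558631 of the plus strand of chromosome 6. Etv4 (ENSRNOG00000020792) spans bases 89685058 to 89700283 of the minus strand of chromosome 10, and Etv5 (ENSRNOG00000001785) spans bases 82194657 to 82252139 of the plus strand of chromosome 11. No counted gene overlapped any of them. RefSeq promoter sequence was at hand for 2 of the 3 members, Etv1 and Etv5, in build GRCr8. The 250 bases before each start are shown because both genes rose together and because ETS factors can act on ETS genes. Both are on the plus strand, at chr6:61317179-61317428 for Etv1 and at chr11:92113013-92113262 for Etv5, and capitals mark the ETS core GGAA or its complement TTCC.
Etv1: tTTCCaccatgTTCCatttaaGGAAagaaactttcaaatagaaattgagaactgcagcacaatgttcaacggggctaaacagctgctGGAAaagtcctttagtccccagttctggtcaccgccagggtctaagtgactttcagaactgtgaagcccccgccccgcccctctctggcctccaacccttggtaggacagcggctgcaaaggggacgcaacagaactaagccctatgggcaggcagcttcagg
Etv5: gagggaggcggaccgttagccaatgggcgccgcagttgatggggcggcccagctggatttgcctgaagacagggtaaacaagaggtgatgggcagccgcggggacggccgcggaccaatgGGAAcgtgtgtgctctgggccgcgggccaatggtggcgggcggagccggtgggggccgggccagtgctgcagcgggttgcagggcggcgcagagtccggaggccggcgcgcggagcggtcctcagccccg
The Etv5 window was 72.4% G and C, against 52.4% in the Etv1 window and a median of 51.2% over 33469 RefSeq windows of the same length. Etv1 held 4 ETS cores, a number reached by 34.7% of all windows, and Etv5 held 1, below the median of 3. At least 1 core was found in 93.2% of windows. Etv1 also held 1 CArG box, the site read by serum response factor, which starts at position -237 from the start and overlaps an ETS core on each side. A CArG box was found in 1.5% of windows. Neither promoter held a capicua octamer (TGAATGNA or TCAATGNA, in 5.78% of windows), an AP-1 site (TGANTCA, in 6.34%) or a kappaB consensus (in 6.33%), on either strand. These matches describe letters in the windows and not binding.

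Etv4 changed the most. This factor is also called PEA3 and gave the subfamily its name. Its level was 33.0, 31.9 and 37.0 CPM in DMSO replicates 1 to 3 and 83.5, 81.4 and 82.4 CPM in ZJU-37 replicates 1 to 3, from 452 to 696 and from 1545 to 1993 counts. The ZJU-37 libraries lay close together, and the lowest of them was 2.20 times the highest DMSO library. The group means were 33.9 ± 2.67 and 82.4 ± 1.08 CPM (SD, n = 3 each). The log2 fold change was 1.28 (SE 0.07, 95% interval 1.11 to 1.45), with an adjusted p-value of 2.70e-04 from the quasi-likelihood fit of edgeR after Benjamini-Hochberg correction. By p-value Etv4 ranked 36 of the 14670 genes tested, and 1.64% of them had a larger log2 fold change.

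Etv5, also called ERM, was the most abundant member per length in both groups. It stood at 114, 121 and 125 CPM with DMSO and at 198, 209 and 208 CPM with ZJU-37. The groups were again apart, by a factor of 1.58 between the nearest libraries. The means were 120 ± 5.53 and 205 ± 6.03 CPM (SD, n = 3 each), a log2 fold change of 0.77 (SE 0.06, 95% interval 0.63 to 0.92; edgeR adjusted p = 5.21e-04). It ranked 161 by p-value, and 5.51% of tested genes had a larger log2 fold change.

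Etv1, also called ER81, changed the least of the 3. Its libraries held 114, 133 and 128 CPM with DMSO and 181, 197 and 198 CPM with ZJU-37. Replicate 1 was the lowest of its group in both conditions, and the lowest ZJU-37 library was 1.36 times the highest DMSO library. The means were 125 ± 9.84 and 192 ± 9.31 CPM (SD, n = 3 each), a log2 fold change of 0.62 (SE 0.08, 95% interval 0.43 to 0.80; edgeR adjusted p = 0.00281). It ranked 589 by p-value, and 7.50% of tested genes had a larger log2 fold change.

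Thus 3 of 3 members were called higher, where 9.43% of all tested genes were called higher and 5.58% lower. The libraries did not overlap for any member, and 19.0% of tested genes were higher in all ZJU-37 libraries than in all DMSO libraries, and 35.2% were separated in either direction. The median log2 fold change over all tested genes was -0.03. Same-numbered libraries deviated together across genes, and within these pairs the log2 difference was 1.34, 1.35 and 1.15 for Etv4, 0.79, 0.79 and 0.73 for Etv5, and 0.67, 0.56 and 0.62 for Etv1. The SD between DMSO replicates was 7.86% of the mean for Etv1, 7.86% for Etv4 and 4.60% for Etv5, and counting error alone gives at most 2.53%, 4.70% and 2.53% for a single library. With ZJU-37 the SD was 4.85%, 1.31% and 2.94%, so that the Etv4 libraries lay closer together than the 2.24% of counting error in the deepest library.

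**Figure D1:**
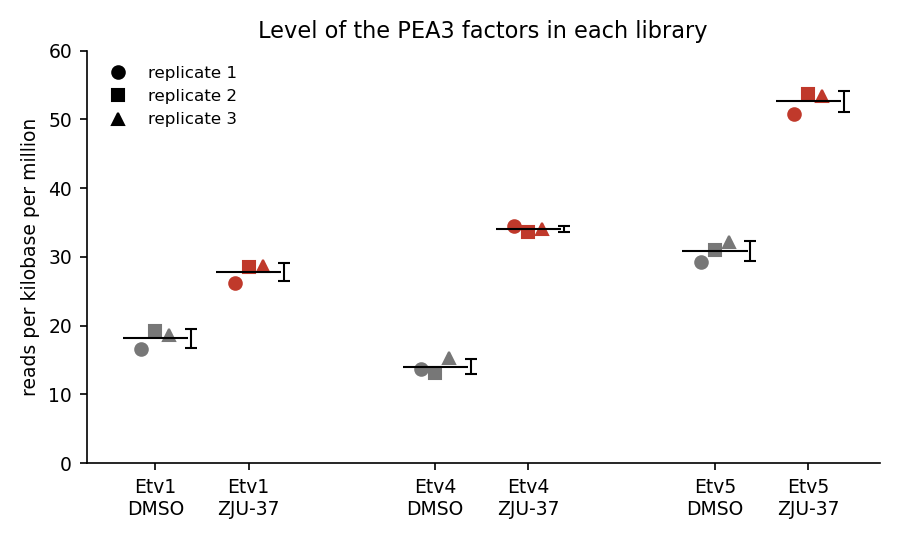
Level of each PEA3 factor in RPKM, by library. Marker shapes give replicates 1 to 3, lines the group means and bars the SD (n = 3). The ZJU-37 libraries lie above the DMSO libraries for each gene, with Etv4 going from 14.0 to 34.1 RPKM on average.

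**Figure D2:**
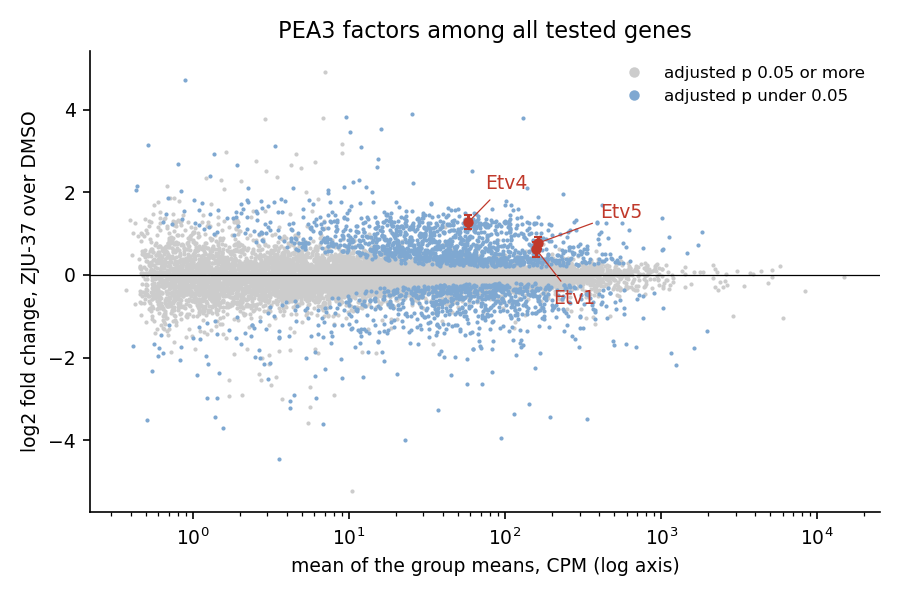
Log2 fold change of ZJU-37 over DMSO against the mean level in CPM (log axis) for the 14670 tested genes. Blue points have an edgeR adjusted p-value under 0.05, and red points are the PEA3 factors with their 95% intervals, at 1.28 for Etv4, 0.77 for Etv5 and 0.62 for Etv1.

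Divided by the gene lengths in the table (6906 bases for Etv1, 2420 for Etv4 and 3897 for Etv5), the order of the levels changed between the groups. With DMSO, Etv5 stood at 30.9 ± 1.42 RPKM, Etv1 at 18.1 ± 1.43 RPKM and Etv4 at 14.0 ± 1.10 RPKM (SD, n = 3). Etv1 was above Etv4 in each DMSO library, at 16.5, 19.3 and 18.6 against 13.6, 13.2 and 15.3 RPKM. With ZJU-37, Etv5 reached 52.6 ± 1.55 RPKM, Etv4 34.1 ± 0.447 RPKM and Etv1 27.8 ± 1.35 RPKM. Etv4 was then above Etv1 in each library, at 34.5, 33.6 and 34.0 against 26.2, 28.5 and 28.6 RPKM, and the ranges of neighbouring members overlapped in neither group. The order between genes rests on the annotated lengths, whereas the change of their ratio does not. Averaged over the 6 libraries, 16.1% of tested genes had a higher RPKM than Etv5, 28.4% than Etv4 and 29.7% than Etv1.

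Summed over the 3 members, the level rose from 59.5, 63.5 and 66.0 RPKM with DMSO to 112, 116 and 116 RPKM with ZJU-37. Etv4 made up 22.9%, 20.7% and 23.1% of this sum with DMSO and 30.9%, 29.0% and 29.3% with ZJU-37. The share of Etv1 went from 27.8%, 30.4% and 28.2% to 23.5%, 24.6% and 24.7%. Etv5 kept the largest share, 48.7% to 49.3% with DMSO and 45.6% to 46.3% with ZJU-37.

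**Figure D3:**
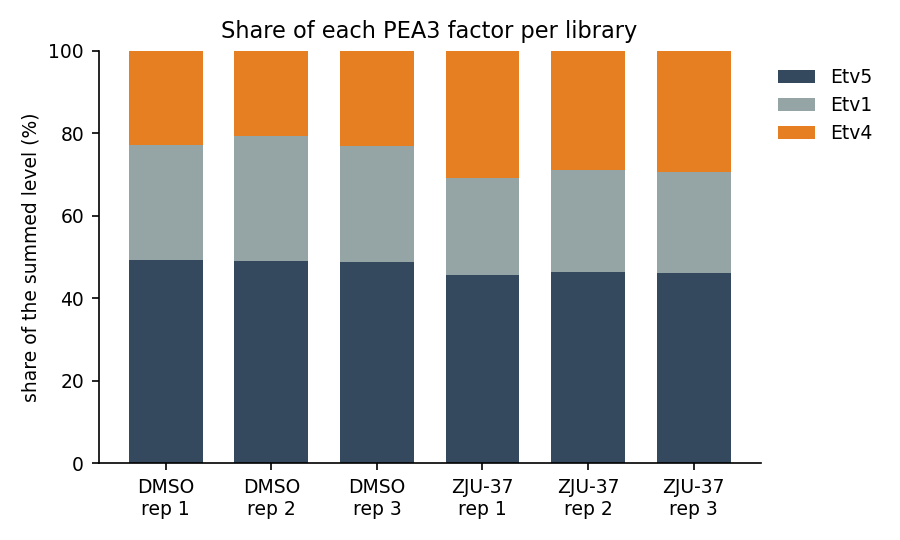
Share of each PEA3 factor in the summed level (RPKM) of the 3, in percent, for each library. The Etv4 share is 20.7% to 23.1% in the DMSO libraries and 29.0% to 30.9% in the ZJU-37 libraries.

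The ratio of 2 members within a library does not depend on how libraries are scaled. The log2 ratio of Etv4 to Etv5 counts was -1.83 ± 0.09 with DMSO and -1.32 ± 0.06 with ZJU-37 (SD, n = 3), a difference of 0.51. For Etv1 to Etv4 it was 1.88 ± 0.16 and 1.22 ± 0.09, a difference of -0.66, and for Etv1 to Etv5 it was 0.06 ± 0.07 and -0.10 ± 0.03, a difference of -0.15. The groups did not overlap for any of these ratios, and how often ratios of other gene pairs separate was not tested. The 3 ratios are not independent, because each follows from the other 2. An exact two-sided permutation test gave p = 0.1 for each of the 3, and 0.1 after adjustment over them, which is the smallest p that 3 against 3 libraries allow.

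No gene next to a member passed the test, and most were not counted at all. Dhx8, an RNA helicase gene at bases 89645973 to 89683446 of the plus strand beside Etv4, stood at 54.0 ± 0.905 CPM with DMSO and 54.0 ± 2.80 CPM with ZJU-37 (SD, n = 3), with an edgeR adjusted p-value of 0.998. AABR07034639.1, after Etv5, went from 4.87 ± 0.985 to 5.65 ± 1.25 CPM (edgeR adjusted p = 0.624). The other neighbours, AABR07063975.1 and RF00560 around Etv1, AABR07030482.1 after Etv4 and AABR07034637.1 before Etv5, had 0 counts in every library, which allows up to 0.124 to 0.215 CPM.

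Over the 6 libraries the log2 CPM of the members were correlated, with Pearson's r of 0.964 for Etv1 and Etv4, 0.988 for Etv1 and Etv5 and 0.993 for Etv4 and Etv5. The points share their libraries and the 2 treatment groups, and these values are a description. Among 12532 genes compared, the pattern most like that of Etv4 was found in Glce, an enzyme of heparan sulfate synthesis (r = 0.999, log2 fold change 1.21), Hltf (0.999 and 0.79) and Pold3, a DNA polymerase delta subunit (0.998 and 0.67). For Etv5 these were Arid4a (0.999 and 0.29), the nucleoside diphosphate kinase gene Nme2 (0.999 and 0.37) and the tropomyosin gene Tpm1 (0.998 and 1.10). For Etv1 they were Syde1, Rps27l and the matrix glycoprotein gene Emilin1, each with r = 0.997. All 9 were called higher by edgeR, which largely follows from choosing them by their likeness to members that rose in the same libraries.

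Other genes whose transcripts are used as a readout of ERK activity moved with the PEA3 factors in part. Of 8 tested, 4 rose and 0 fell, beside 9.43% and 5.58% of all tested genes, and their median log2 fold change was 0.73. At an unadjusted p-value under 0.05, a criterion that 28.7% of all tested genes met in either direction, edgeR gave 5 higher and 0 lower, and DESeq2 and limma-voom each called 4 higher and 0 lower. Spry4, a feedback inhibitor of receptor tyrosine kinase signalling, went from 43.8, 37.7 and 42.4 to 116, 121 and 136 CPM, a log2 fold change of 1.59 (SE 0.09; edgeR adjusted p = 2.70e-04). The related Spry2 rose by 0.98 (SE 0.10; edgeR adjusted p = 0.00114). Ccnd1, the D-type cyclin of the G1 phase and the gene of the list with the highest level, at 262 RPKM over all libraries, rose by 1.37 (SE 0.10; edgeR adjusted p = 4.10e-04). Phlda1 rose by 1.36 (SE 0.10; edgeR adjusted p = 4.03e-04). The libraries of the groups did not overlap for these 4 genes, which were named for their calls. Of all tested genes, 19.0% were higher without overlap. Dusp6, the ERK phosphatase, stood at 73.5, 84.5 and 91.8 against 87.0, 130 and 129 CPM, with overlapping groups and an edgeR adjusted p-value of 0.128. With the replicate number as a block its adjusted p-value was 0.00161. Dusp4, Epha2 and Epha4 did not pass the test, with log2 fold changes of -0.17, 0.10 and -0.02.

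Of 16 receptor tyrosine kinases tested out of 18 in the table, 3 were called higher and 1 lower, beside 9.43% and 5.58% of all tested genes, with a median log2 fold change of 0.04. With the replicate block 6 were higher and 4 lower, where 16.2% and 15.9% of all tested genes were called. Pdgfra, the receptor for platelet-derived growth factor AA and the one with the highest level (94.96 RPKM), went from 450, 358 and 374 to 1124, 651 and 755 CPM. Its log2 fold change was 1.10 (SE 0.21; edgeR adjusted p = 0.0182, or 1.17e-04 with the block), and without DMSO replicate 2 or 3 the adjusted p-value was 0.0775 or 0.0693. Fgfr1 rose by 0.35 (SE 0.06; edgeR adjusted p = 0.00842). Ntrk3, the neurotrophin-3 receptor, was higher by 0.77 (SE 0.20; edgeR adjusted p = 0.0468), and leaving out any library but DMSO replicate 1 gave an adjusted p-value of 0.0515 to 0.134. Fgfr2 was lower, with a log2 fold change of -0.79 (SE 0.17; edgeR adjusted p = 0.0225), and leaving out ZJU-37 replicate 1, 2 or 3 gave 0.0526, 0.0527 or 0.0805.

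Of 14 genes reported from the cascade between RAS and ERK, 1 was called lower and 0 higher, where 5.58% and 9.43% of all tested genes were, and the median log2 fold change was -0.03. At an unadjusted p-value under 0.05 edgeR gave 2 lower and 0 higher, DESeq2 called 2 lower and 0 higher, and limma-voom called 1 lower and 0 higher. Mapk3, which encodes ERK1 and had the highest level of the list (132 RPKM), went from 308, 274 and 253 to 174, 207 and 191 CPM. Its log2 fold change was -0.55 (SE 0.10; edgeR adjusted p = 0.0124). With the block 4 of these genes were lower and 0 higher, where 15.9% and 16.2% of all tested genes were.

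Of 10 genes for the repression and turnover of PEA3 factors found in the table, all tested, 0 were called higher and 1 lower, near the 9.43% and 5.58% of all tested genes, and the median log2 fold change was -0.07. At an unadjusted p-value under 0.05 edgeR gave 1 higher and 3 lower, DESeq2 called 1 and 1, and limma-voom called 0 and 1. The gene that fell was Dda1, a part of the COP1 and DET1 ligase, from 111, 108 and 97.5 to 79.0, 86.8 and 83.5 CPM (log2 fold change -0.34, SE 0.07; edgeR adjusted p = 0.0213). Without DMSO replicate 1, DMSO replicate 2 or ZJU-37 replicate 3 its adjusted p-value was 0.0662, 0.0848 or 0.0761. Cic, the capicua gene, had a log2 fold change of -0.23 (95% interval -0.43 to -0.03; edgeR adjusted p = 0.125, or 0.00892 with the block), and Cop1 one of -0.11 (edgeR adjusted p = 0.297). Trib2, a COP1 adaptor, stood at 0.28 (edgeR adjusted p = 0.0524, or 0.00377 with the block). Ddb1, the ligase adaptor with the highest level of the list (112 RPKM), had 0.00 (edgeR adjusted p = 0.984).

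Among the other ETS genes, 16 of 23 had enough counts to be tested, and 1 was called higher and 2 lower, beside 9.43% and 5.58% of all tested genes, with a median log2 fold change of -0.01. With the block 3 were higher and 3 lower, close to the 16.2% and 15.9% of all tested genes. Ets1 went from 67.6, 69.8 and 73.8 to 100, 86.8 and 89.5 CPM (log2 fold change 0.39, SE 0.08; edgeR adjusted p = 0.0158), and without DMSO replicate 1, DMSO replicate 2 or ZJU-37 replicate 3 the adjusted p-value was 0.0559, 0.0669 or 0.0513. Elf1 went from 77.4, 88.2 and 82.7 to 35.7, 55.5 and 47.0 CPM (log2 fold change -0.84, SE 0.16; edgeR adjusted p = 0.0145), and without DMSO replicate 2, DMSO replicate 3 or ZJU-37 replicate 3 it was 0.0599, 0.0510 or 0.0558. Etv6, an ETS repressor, had a log2 fold change of -0.43 (SE 0.11; edgeR adjusted p = 0.0379), and leaving out any 1 of the 6 libraries gave 0.0531 to 0.130. Spi1, the myeloid ETS factor found in microglia, had the highest level of the list at 69.1 RPKM, with 110, 182 and 168 against 74.6, 156 and 130 CPM (edgeR adjusted p = 0.514, or 0.00226 with the block). The block also called 3 microglial markers lower and 0 higher, and the part of microglial RNA in the Spi1 values was not tested. Etv2 and Fev had 0 counts in every library.

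Genes known to respond to PEA3 factors in kidney and germline gave 0 calls in either direction among 6 tested of 8 in the table, a number too small to set apart from the 9.43% and 5.58% of all tested genes. At an unadjusted p-value under 0.05 edgeR gave 1 higher and 0 lower, DESeq2 called 1 higher and limma-voom 0, and the median log2 fold change was 0.06. The gene with the smallest p-value was Bcl6b, a transcriptional repressor that supports self-renewal of spermatogonial stem cells, at 3.14, 5.82 and 4.03 against 6.81, 13.2 and 8.89 CPM (edgeR adjusted p = 0.0580, or 1.84e-04 with the block). Met, the receptor for hepatocyte growth factor, had a log2 fold change of 0.60 (edgeR adjusted p = 0.177, or 0.0279 with the block). With the block 3 others were lower, namely Cxcr4, Ret and the metalloproteinase gene Mmp14, which had the highest level of the list (81.5 RPKM). Lhx1 had 0 counts in every library and Tbxt 1 in all.

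**Figure D4:**
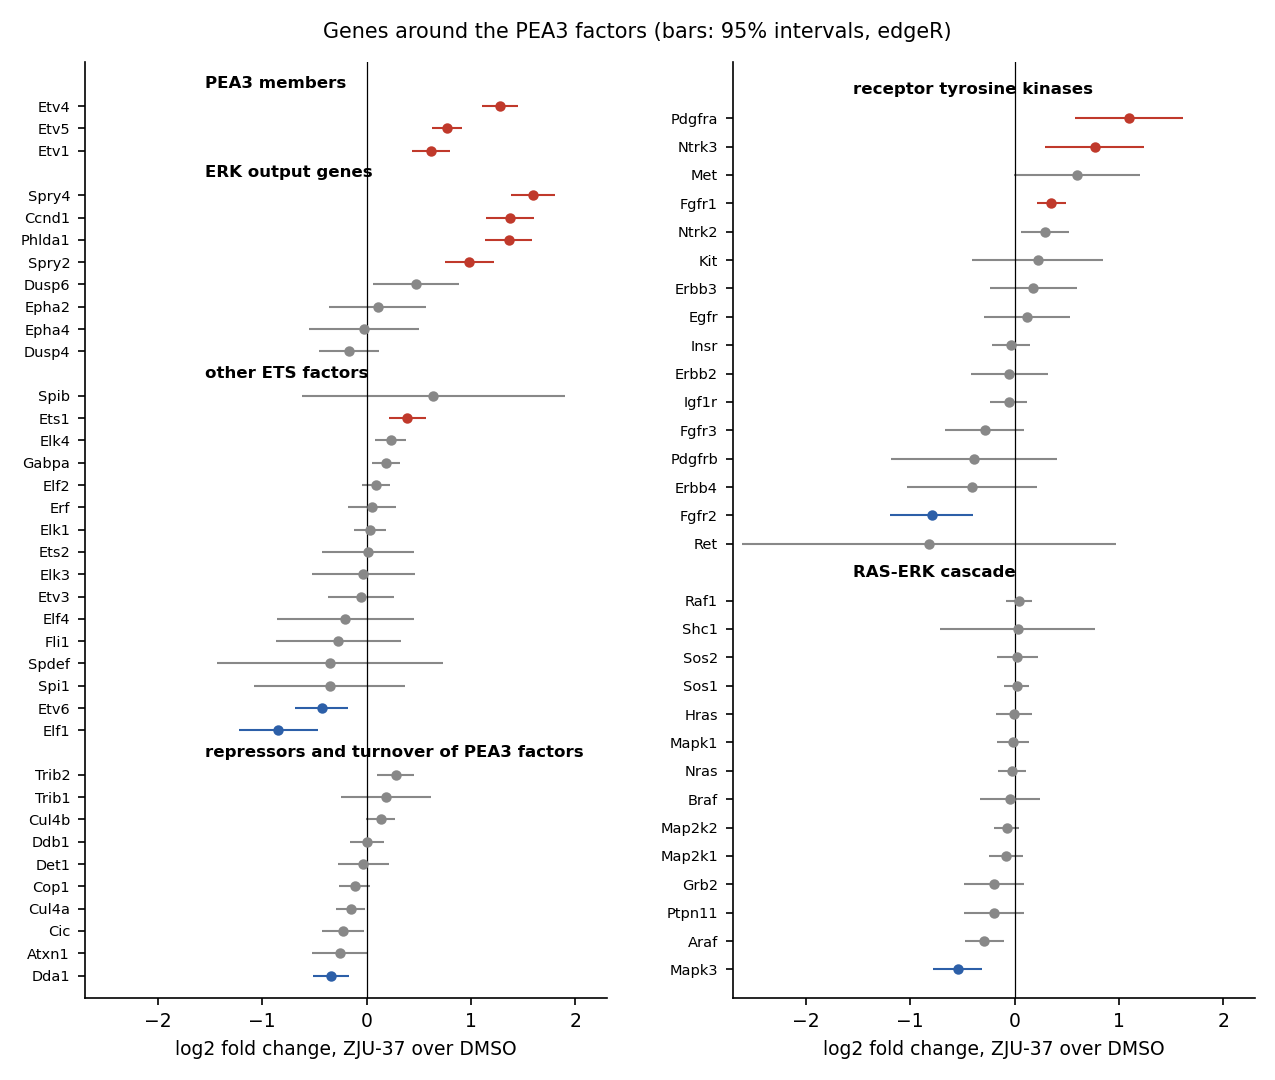
Log2 fold change of ZJU-37 over DMSO with 95% intervals from edgeR for the PEA3 factors and 5 lists of related genes. Red marks genes called higher, blue genes called lower and grey genes that did not pass the test. The PEA3 factors, with intervals from 0.43 to 1.45, and the 4 ERK output genes called higher lie to the right of 0. The interval of Dusp6, which was not called, also lies above 0 (0.06 to 0.88). The other lists spread around 0.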

How the data were processed

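Poly-A RNA of 6 libraries, 3 per group, was sequenced in paired-end mode. The submitters' processing notes name HISAT2 2.0.5, StringTie 1.3.3b and featureCounts 1.5.0, with no genome build given in the sources used here. The authors deposited raw counts per gene and FPKM values, which they computed from the counts, library depth and gene length. They also deposited their own fold changes and p-values, which were not used. The kit does not mark strand.

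Counts were tested with edgeR 4.0.16 (quasi-likelihood, robust, filterByExpr with a minimum count of 10, TMM) in R 4.3.3, without a block, and p-values were adjusted by Benjamini-Hochberg over 14670 genes with a threshold of 0.05. CPM and RPKM used TMM library sizes and the table's gene lengths. Alternatives were DESeq2 1.42.0, limma 3.58.1 (voom, or log2 of FPKM plus 1 or 0.1), other scalings and filters, thinning to 13935865 counts, leaving out each library and a replicate block. Replicate numbers come from the sample titles. Same-numbered libraries had correlated deviations (r = 0.394, 0.312 and 0.329), different-numbered ones did not (-0.271 to -0.0116). The numbers were therefore taken as pairs in the fit with the replicate block. The main edgeR fit and the permutation test of the ratios did not use this pairing. The methods call the libraries biological repeats, whereas the paper's legend for this RNA-seq counts n in plate wells. The labels name no separate cultures, so p-values measure the spread between these libraries, which may be technical. Members and lists were chosen with earlier results of these data known. Genes named by rule are the members, all called genes of each list, the gene with the highest RPKM of each pathway list and the nearest neighbours. The rule also covers the 3 named genes most correlated with each member (mean level 1 CPM or more). Further list genes that were not called or had few or no counts are named without a fixed rule. In the lists, 1 gene is not reported here. Atxn1l and Pecam1 were not matched to a name in the table. Floors and the stated counting errors cover counting error only, and the 95% intervals come from the edgeR fit and include the spread between libraries.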

Additional observations from a re-analysis of the deposited data

How the results depend on the processing

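The 3 PEA3 factors kept their call and direction under all 17 alternatives, with log2 fold changes of 1.22 to 1.35 for Etv4, 0.74 to 0.81 for Etv5 and 0.55 to 0.67 for Etv1 and adjusted p-values of at most 0.00298, 0.00496 and 0.0172. Leaving out 1 library gave 1.23 to 1.35, 0.74 to 0.81 and 0.55 to 0.67. The differences in log2 ratio ranged from 0.46 to 0.54 (Etv4 to Etv5), -0.71 to -0.57 (Etv1 to Etv4) and -0.18 to -0.11 (Etv1 to Etv5) under 9 alternatives. Fgfr1, Mapk3, Spry4, Spry2, Ccnd1, Phlda1, Cspg4, Gpr17, Cnp and Myrf also kept their calls.

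With the replicate block, that is, with the pairing by replicate number, 2371 genes were higher and 2334 lower in place of 1383 and 818. Higher and lower calls were then 3 and 3 of the other ETS genes, 1 and 2 of the repression and turnover genes, 6 and 4 of the receptors, 0 and 4 of the cascade and 2 and 3 of the kidney and germline genes. Among the marker lists it left the 4 higher and 2 lower OPC calls and gave 5 lower oligodendrocyte calls in place of 2. The block changed the call of no PEA3 factor.

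Leaving out 1 library gave 858 to 1259 higher and 374 to 668 lower genes. Without DMSO replicate 2 there were 858 and 448, without DMSO replicate 1 498 lower and without ZJU-37 replicate 3 374 lower. By list, higher and lower calls were then 0 to 1 and 0 to 1 (other ETS genes; repression and turnover), 1 to 3 and 0 to 1 (receptors), 0 and 1 (cascade), and 0 to 1 and 0 (kidney and germline).

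Other ETS genes gave 2 higher calls by library size only or thinned, and 1 lower call thinned, where Etv6 had an adjusted p-value of 0.0762. Repression and turnover genes gave 1 higher call in DESeq2, by library size only, thinned, with no filter and with 10 counts in every library. The cascade gave 2 lower calls in DESeq2, both FPKM fits, with size factors (RLE), library size only, upper quartile scaling, 10 counts in every library and thinned. Kidney and germline genes gave 1 higher call in DESeq2, by library size only and with no filter. Ntrk3 missed the threshold in both FPKM fits, by library size only and by upper quartile (0.0504 to 0.0575). Sox10 missed it by library size only and by upper quartile (0.0667 and 0.0507). The cause was not tested. With 3 libraries a group, small changes of low genes may be missed at this depth.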
